A study of Mus musculus with 10 samples.

Results

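Endothelial cells carry much of the machinery that keeps blood fluid and that dissolves clots, and 9 genes of this machinery were followed here in lymphatic endothelial cells (LECs) sorted from the meninges. They were Vwf, F8, F3, Tfpi, Thbd, Procr, Plat, Plau and Anxa2. They were chosen by symbol for their known role in coagulation and fibrinolysis, and each matched 1 of the 55401 genes in the deposited count table. All 9 were among the 14815 genes that were tested, which exceeded 5 counts in 3 or more replicates.

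The study asked whether stress changes the transcriptome of meningeal LECs in female mice. Cells were taken from 3-month-old female mice of the strain C57BL/6 (C57BL/6J in the methods), and the labels give no transgene in either group. The naive group (n = 5 replicates) was not stressed. The SCVS group (n = 5 replicates) went through sub-chronic variable stress, in which foot-shock, tail suspension and restraint alternated over 6 days. Every replicate of either group was a pool of cells from 3 to 4 meninges. After perfusion with saline the meninges were digested in the presence of actinomycin D, an inhibitor of transcription, and viable CD45- CD31+ podoplanin+ cells were sorted by flow cytometry. Their RNA was amplified before sequencing. The gate takes endothelial cells by CD31 and lymphatic ones by podoplanin, and it excludes leukocytes by CD45.

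Clotting in blood vessels starts when tissue factor, the product of F3, meets factor VII, and it is amplified by cofactors such as factor VIII, the product of F8, which circulates bound to von Willebrand factor, the product of Vwf. Endothelium restrains it through tissue factor pathway inhibitor (Tfpi), thrombomodulin (Thbd) and the endothelial protein C receptor (Procr), the last of which presents protein C to the thrombin and thrombomodulin complex. Clots are dissolved by plasmin, which is made from plasminogen by tissue-type (Plat) or urokinase-type (Plau) activators, and annexin A2 (Anxa2) with S100A10 forms a surface receptor for plasminogen and the tissue-type activator. Lymphatic vessels carry lymph, which clots far less readily than blood, and lymphatic endothelium is known to make factor VIII.

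Promoter sequences of the members are shown first, so that motif letters can be read beside the values that follow. RefSeq promoters (GRCm38.p6, 250 bases before to 50 after the transcription start) were given for 5 of the 9 genes, F8, F3, Tfpi, Procr and Anxa2, and not for Vwf, Thbd, Plat or Plau. The AP-1 motif (TGACTCA, or TGAGTCA on the other strand) was found in 3 of these 5 genes, against 5.2% of all 32851 promoters of the same length. The motif letters ACAATG, a core bound by SOX factors, were found in Tfpi alone of the 5, against 12.6% of all promoters on either strand. Both percentages are shares of promoters and not of genes, and Tfpi had 2 promoters against 1 for each other gene. These motifs were chosen after the sequences were known, the matches did not overlap each other, and a match is a description of letters and not a bound site. The 3 promoters with an AP-1 match and the upstream Tfpi promoter are given 5′ to 3′ on the strand of the gene, with AP-1 and SOX matches in capitals. The F3 window is chr3:121723287-121723586 on the plus strand, the Procr window chr2:155750967-155751266 on the plus strand, the Anxa2 window chr9:69453433-69453732 on the plus strand and the Tfpi window chr2:84476710-84477009 on the minus strand.
F3: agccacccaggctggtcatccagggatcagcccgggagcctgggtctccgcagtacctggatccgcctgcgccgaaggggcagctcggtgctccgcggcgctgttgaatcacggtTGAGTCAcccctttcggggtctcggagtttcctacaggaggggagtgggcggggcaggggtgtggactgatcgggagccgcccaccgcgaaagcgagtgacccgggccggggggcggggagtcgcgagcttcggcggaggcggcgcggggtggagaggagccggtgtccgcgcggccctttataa
Procr: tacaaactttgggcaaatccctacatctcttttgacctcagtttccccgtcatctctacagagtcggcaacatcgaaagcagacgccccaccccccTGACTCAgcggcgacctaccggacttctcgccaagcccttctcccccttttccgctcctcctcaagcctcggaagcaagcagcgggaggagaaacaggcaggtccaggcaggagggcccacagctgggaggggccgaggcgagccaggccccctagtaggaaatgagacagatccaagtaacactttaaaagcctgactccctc
Anxa2: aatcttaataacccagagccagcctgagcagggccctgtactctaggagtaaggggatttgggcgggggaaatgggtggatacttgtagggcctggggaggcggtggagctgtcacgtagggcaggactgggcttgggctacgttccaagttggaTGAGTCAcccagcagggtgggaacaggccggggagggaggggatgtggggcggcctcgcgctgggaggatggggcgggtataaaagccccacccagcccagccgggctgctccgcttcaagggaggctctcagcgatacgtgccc
Tfpi: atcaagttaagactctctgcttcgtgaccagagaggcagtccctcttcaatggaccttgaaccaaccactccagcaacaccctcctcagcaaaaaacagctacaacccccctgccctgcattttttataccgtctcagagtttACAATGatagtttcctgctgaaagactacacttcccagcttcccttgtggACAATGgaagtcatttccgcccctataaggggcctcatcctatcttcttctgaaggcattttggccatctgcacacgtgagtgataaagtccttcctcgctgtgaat
The AP-1 match began 135 bases before the start in F3, 154 before it in Procr and 95 before it in Anxa2, and the SOX letters began 107 and 57 bases before the start in Tfpi. The 4 windows differed in composition, from 70.3% GC in F3 and 63.7% in Anxa2 to 58.3% in Procr and 48.0% in Tfpi, against a median of 52.7% over all promoters. The letters GGGCGG (35.7% of all promoters) occurred 3 times in F3 and 3 times in Anxa2, once in the Tfpi window shown and not in Procr. TATAAA (13.6% of all promoters) began 17 bases before the start of Anxa2, and on the opposite strand 127 bases before the start of Tfpi and 44 bases after the start of F3. The second Tfpi start (52.3% GC) held 1 GGGCGG and no match to the other motifs, and the F8 window (42.3% GC), which lies inside the annotated gene, held none of the 4 motifs. The genes with an AP-1 match did not share a pattern over the replicates, with a Spearman rho of -0.45 between F3 and Anxa2, -0.30 between F3 and Procr and -0.04 between Procr and Anxa2 (n = 10 replicates of the same libraries, a description).

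The replicates held between 9984743 and 14094155 counts, and 3 counts, used as a floor, corresponded to 0.213 to 0.301 CPM (counts scaled to a column total of 1000000). Floors cover counting error only, since amplified reads are not independent molecules. By edgeR the biological coefficient of variation was 1.59, and 61.9% of the tested genes (9176) had at most 3 counts in at least 1 replicate. Prox1 and Pdpn, which define lymphatic endothelium, were at 0 counts in naive 1, and Lyve1 was at 0.192 CPM there. Prox1 was also low in SCVS 5 and SCVS 1, at 0.2003 CPM (below the floor) and 1.06 CPM, where Pdpn stood at 19.8 and 62.9 CPM. In naive 5, the summed level of 7 blood endothelial markers was 313 CPM and that of 6 markers of all endothelium 542 CPM, against at least 5084 and 4147 CPM in the other 9 replicates. Blood endothelial markers summed to a higher level than 7 lymphatic markers in all 10 replicates. The comparisons were therefore also run without naive 1 and naive 5, an alternative chosen after the data were seen. No SCVS replicate was left out in that alternative.

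Expression of the 9 genes was not shown to differ between SCVS and naive cells sorted as meningeal LECs. None of the 9 (0) passed edgeR's quasi-likelihood test at an adjusted p of 0.1, and 0% of all tested genes did. At an unadjusted p of 0.05 the members again gave 0, against 3.1% of all tested genes (460), and DESeq2 called 0 members against 0.769% of all tested genes (114), while limma called 3 genes and no member. For 0 of the 9 genes did the groups separate without overlap in CPM, against 0.628% of all tested genes. The log2 fold change was above 0 for 5 members and below 0 for 4, with a median of 0.01 beside a median of -0.03 over all tested genes. The adjusted p of every member was 1 by edgeR and 0.9997 by DESeq2.

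**Figure D1:**
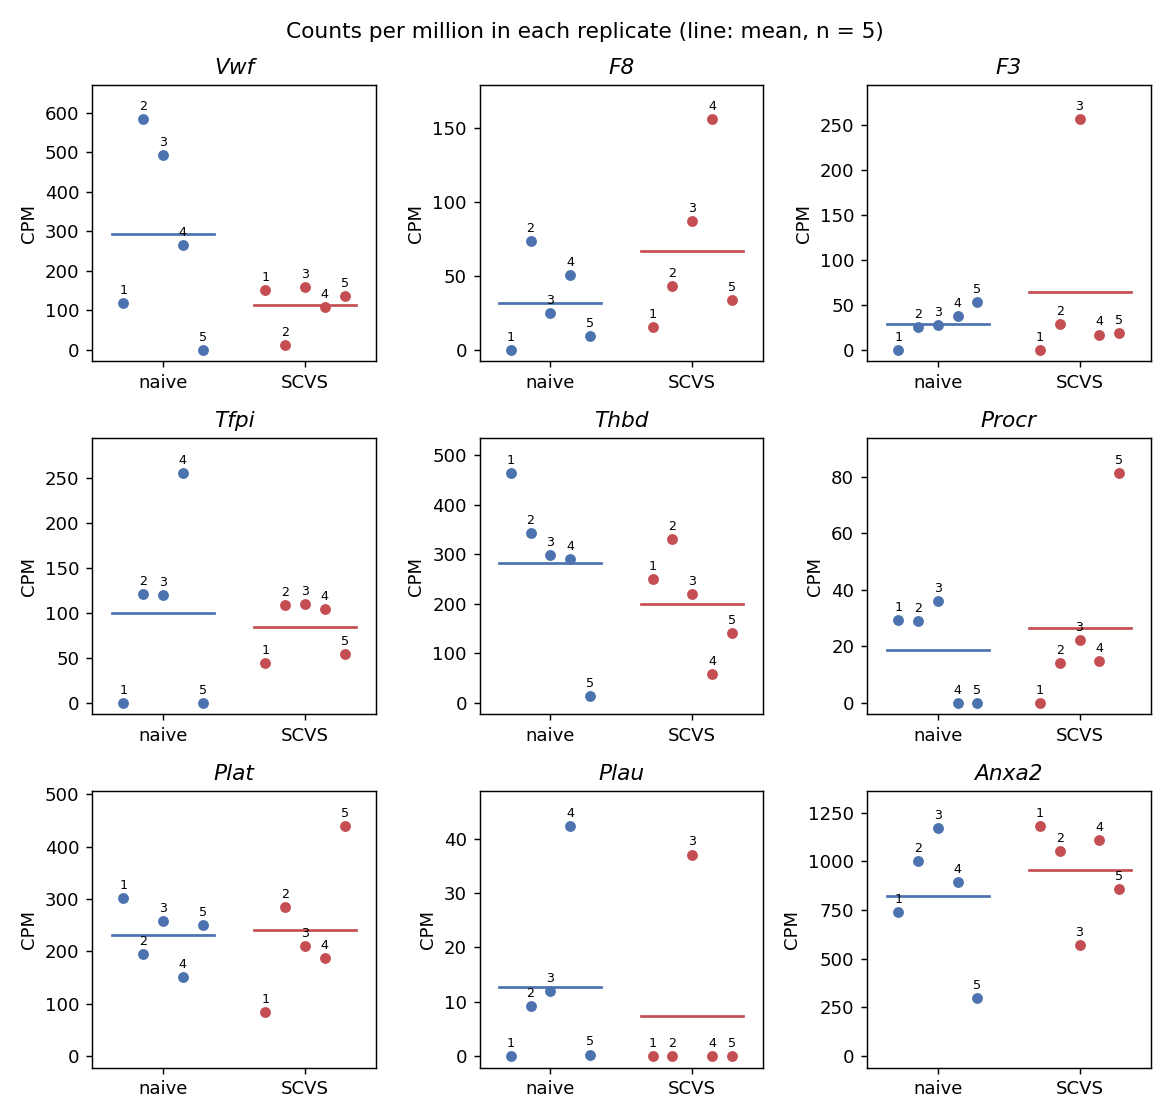
CPM of the 9 genes (y axis, linear, a separate scale for each gene) in the 5 naive and 5 SCVS replicates (x axis), each point 1 pool of mice marked with its replicate number and each line a group mean. The groups overlapped for every gene, Vwf was at 0 in naive 5, and F3 reached 256 CPM in SCVS 3.

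**Figure D2:**
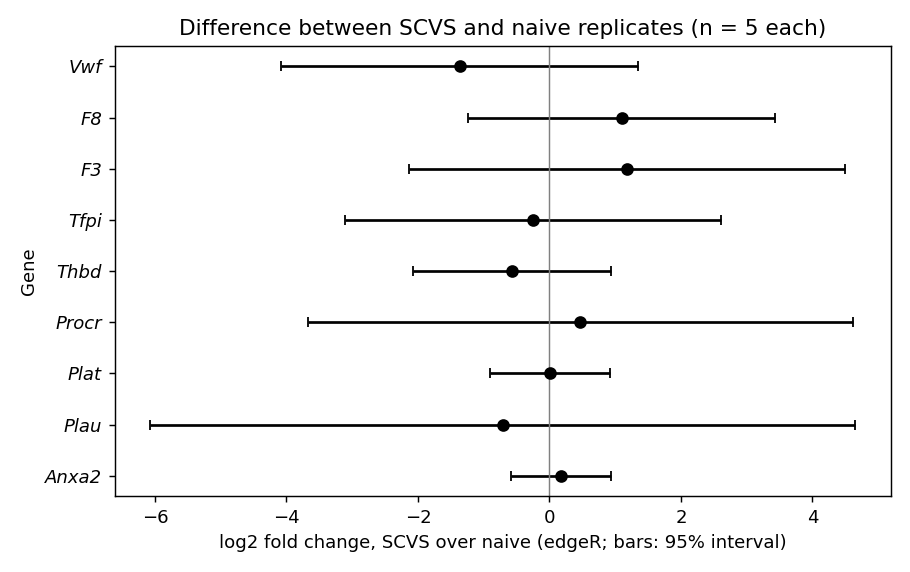
Log2 fold change of SCVS over naive (x axis) for the 9 genes (y axis) from edgeR, with 95% confidence intervals as bars. All 9 intervals include 0, and the narrowest are those of Anxa2 and Plat.

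Vwf (ENSMUSG00000001930, chr6:125552948-125686679), whose product tethers platelets and carries factor VIII, was measured at 119, 583, 494, 265 and 0 CPM in naive 1 to 5. It stood at 152, 12.65, 159, 107 and 135 CPM in SCVS 1 to 5. Both groups thus had 1 replicate far below the rest, and the 3 highest values of all were naive 2, 3 and 4. The naive mean was 292 ± 246 CPM (SD, n = 5) and the SCVS mean 113 ± 59.65 CPM (SD, n = 5). The log2 fold change was -1.36 (SE 1.24, 95% interval -4.08 to 1.35), and a difference in means as large arose in an exact two-sided permutation test with p = 0.214 (adjusted p = 1, smallest possible unadjusted p 0.00794). An SCVS replicate was above a naive replicate in 8 of 25 pairs. Without naive 5 the naive mean was 365 ± 212 CPM (SD, n = 4) and the log2 fold change -1.69 (edgeR unadjusted p = 0.0279, adjusted p = 0.934). Without naive 1 as well, the 3 remaining naive replicates lay at 265 to 583 CPM, above every SCVS replicate, with a log2 fold change of -1.97 (edgeR unadjusted p = 0.0145, adjusted p = 0.9995). Naive 5 and naive 1 held the lowest naive values of Vwf, at 0 and 119 CPM, so leaving them out raised the naive group by construction. The difference in Vwf did not pass the threshold with either set of replicates.

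F8 (ENSMUSG00000031196, chrX:75170344-75382738), which encodes the cofactor of factor IX, had the opposite order of means. It was measured at 0.192, 73.5, 24.6, 50.9 and 9.30 CPM in naive 1 to 5, and at 15.75, 42.9, 87.1, 156 and 33.95 CPM in SCVS 1 to 5. Naive 1 was below the floor of 3 counts, and 2 SCVS replicates were above every naive replicate. The means were 31.7 ± 30.2 CPM in naive and 67.1 ± 56.1 CPM in SCVS (SD, n = 5 each), which gave a log2 fold change of 1.10 (SE 1.07, 95% interval -1.24 to 3.44) with an exact permutation p of 0.262 (adjusted p = 1). An SCVS replicate was above a naive replicate in 18 of 25 pairs. Without naive 1 and naive 5 the log2 fold change was 0.46. Those replicates held the lowest naive values of F8, so leaving them out raised the naive group by construction. The genes Gm6039, Gm8522 and Fundc2 lie within the span of F8 without overlapping its exons.

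F3 (ENSMUSG00000028128, chr3:121723537-121735052), the initiator of clotting, was measured at 0, 25.8, 27.8, 37.3 and 52.7 CPM in naive 1 to 5. In SCVS 1 to 5 it stood at 0.142, 28.6, 256, 17.0 and 18.3 CPM. It was absent or below the floor in 1 replicate of each group, and SCVS 3 alone was above the naive range. The means were 28.7 ± 19.3 CPM in naive and 64.0 ± 108 CPM in SCVS (SD, n = 5 each), and the log2 fold change was 1.18 (SE 1.52, 95% interval -2.14 to 4.49; exact permutation p = 0.857, adjusted p = 1). Without SCVS 3 the log2 fold change was -0.91, so the direction of the F3 difference rested on that replicate. The other SCVS replicates all lay within the naive range.

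Tfpi (ENSMUSG00000027082, chr2:84432855-84476775), which blocks the complex of tissue factor and factor VII, was measured at 0.288, 122, 120.1, 256 and 0.075 CPM in naive 1 to 5. The SCVS replicates stood at 44.9, 109, 109.7, 104 and 54.2 CPM. The naive replicates fell into 2 at or below 3 counts and 3 that were above every SCVS replicate, while the SCVS values lay close together. The naive mean was 99.7 ± 106 CPM and the SCVS mean 84.5 ± 32.1 CPM (SD, n = 5 each), with a log2 fold change of -0.25 (SE 1.31, 95% interval -3.12 to 2.61; exact permutation p = 0.825, adjusted p = 1). Without naive 1 and naive 5 the naive mean was 166 ± 78.3 CPM (SD, n = 3) and the log2 fold change -0.98 (edgeR unadjusted p = 0.0527, adjusted p = 0.9995). Leaving out these replicates removed the 2 lowest Tfpi values by construction. With them left out, 2 of the 9 genes, Vwf and Tfpi, had groups that did not overlap, against 3.04% of the 13794 genes tested in that set. In the main comparison the log2 fold change of Tfpi was near 0 and its sign changed with the replicates used, being 0.44 without naive 4.

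Thbd (ENSMUSG00000074743, chr2:148404471-148408188), the thrombin receptor that turns thrombin toward activation of protein C, was measured at 465, 344, 298, 290.1 and 13.6 CPM in naive 1 to 5. In SCVS 1 to 5 it stood at 251, 332, 219, 58.0 and 141 CPM. Naive 5 was the lowest of all replicates and SCVS 4 the next lowest, and the other naive replicates lay between 290.1 and 465 CPM. The means were 282 ± 166 CPM in naive and 200.3 ± 105 CPM in SCVS (SD, n = 5 each), with a log2 fold change of -0.57 (SE 0.69, 95% interval -2.08 to 0.94; exact permutation p = 0.365, adjusted p = 1). An SCVS replicate was above a naive replicate in 7 of 25 pairs. Without naive 5 the naive mean was 349 ± 80.9 CPM (SD, n = 4), and without naive 1 and naive 5 it was 311 ± 29.0 CPM (SD, n = 3). Neither set separated the groups.

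Procr (ENSMUSG00000027611, chr2:155751125-155755478), the receptor that holds protein C on the endothelial surface, was detected in 7 of the 10 replicates. It was measured at 29.5, 28.8, 36.2, 0 and 0 CPM in naive 1 to 5 and at 0, 14.3, 22.4, 14.7 and 81.4 CPM in SCVS 1 to 5. Replicates at 0 occurred in both groups, and SCVS 5 was the highest of all. The means were 18.9 ± 17.5 CPM in naive and 26.6 ± 31.7 CPM in SCVS (SD, n = 5 each), and the log2 fold change was 0.47 (SE 1.89, 95% interval -3.68 to 4.61; exact permutation p = 0.714, adjusted p = 1). Without SCVS 5 the log2 fold change was -0.61.

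Plat (ENSMUSG00000031538, chr8:22757722-22782848), the tissue-type activator of plasminogen, was present in every replicate. It was measured at 303, 194, 258, 151 and 249.7 CPM in naive 1 to 5 and at 84.65, 284, 211, 187 and 439.7 CPM in SCVS 1 to 5. The SCVS replicates held both the lowest and the highest value, and the naive values lay between them. The means were 231 ± 59.2 CPM in naive and 241 ± 132 CPM in SCVS (SD, n = 5 each), with a log2 fold change of 0.01 (SE 0.42, 95% interval -0.90 to 0.92; exact permutation p = 0.905, adjusted p = 1). On the linear scale this interval ran from 0.534 to 1.898 times the naive level, and a change within these bounds was not excluded.

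Plau (ENSMUSG00000021822, chr14:20836662-20843388), the urokinase-type activator, was the most sparsely detected member, with more than 3 counts in 5 of the 10 replicates. It was measured at 0, 9.16, 12.0, 42.4 and 0.300 CPM in naive 1 to 5 and at 0, 0, 37.1, 0.0756 and 0 CPM in SCVS 1 to 5. The gene was above the floor in 4 naive replicates, by a single count in naive 5, and in SCVS 3 alone among the SCVS replicates. The means were 12.8 ± 17.4 CPM in naive and 7.43 ± 16.6 CPM in SCVS (SD, n = 5 each), with a log2 fold change of -0.71 (SE 2.45, 95% interval -6.08 to 4.65; exact permutation p = 0.484, adjusted p = 1). The interval ran from 0.0148 to 25.1 times the naive level. The value rested on single libraries, being -8.75 without SCVS 3, which leaves at most 1 count in any SCVS replicate (edgeR unadjusted p = 0.0113, adjusted p = 1), and 0.49 without naive 4. With limma it was -5.03 (unadjusted p = 0.0466, adjusted p = 0.944).

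Anxa2 (ENSMUSG00000032231, chr9:69453683-69491792), the plasminogen receptor subunit, was the most evenly expressed of the 9 genes. It was measured at 739.6, 1001, 1172, 892 and 300.0 CPM in naive 1 to 5 and at 1183, 1053, 570.6, 1112 and 857 CPM in SCVS 1 to 5. Naive 5 was the lowest replicate and SCVS 3 the next lowest. The means were 821 ± 331 CPM in naive and 955 ± 247 CPM in SCVS (SD, n = 5 each), with a log2 fold change of 0.17 (SE 0.35, 95% interval -0.59 to 0.93; exact permutation p = 0.5, adjusted p = 1). Without naive 5 the naive mean was 951 ± 182 CPM (SD, n = 4) and the log2 fold change -0.04. The interval with all replicates ran from 0.663 to 1.91 times the naive level. Gm16144 overlaps exons of Anxa2 on the opposite strand, and since the use of strand in counting is not stated, reads of that overlap cannot be assigned to either gene.

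The precision differed widely among the members. The coefficient of variation of CPM over the 10 replicates was 0.320 for Anxa2 and 0.409 for Plat, lower than for all but 4.87% and 10.3% of the tested genes. Thbd, at 0.571, was at the 23.0th percentile of the tested genes. It was 0.809 for Tfpi, 0.940 for F8, 0.953 for Vwf and 1.08 for Procr, around the median of 0.928 over the tested genes. Each of these values was above the median of 0.741 over the tested genes with a mean of at least 10 CPM. F3 and Plau, at 1.63 and 1.61, varied more than 79.9% and 79.3% of the tested genes. All 9 members had a mean of at least 10 CPM, and 6 of them (Vwf, F8, F3, Tfpi, Procr and Plau) had at most 3 counts in at least 1 replicate. Among all 9975 tested genes at that mean level, 47.3% did so.

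Exonic length was taken over all annotated exons of a gene, and the RNA was amplified, so levels divided by it compare genes only approximately. Anxa2 was the most abundant member on this scale at 238 ± 76.2 CPM per kb (SD, n = 10, both groups together), and it was above Plat in 9 of 10 replicates. Plat at 93.3 ± 38.1 and Thbd at 64.9 ± 37.0 CPM per kb followed, and Plat was above Thbd in 6 replicates, so that these neighbours were not separated beyond their spread. Thbd was above F3 in 8 replicates. F3 at 24.7 ± 40.2, Tfpi at 16.9 ± 13.6, Vwf at 12.6 ± 12.0 and Procr at 11.2 ± 12.1 CPM per kb came next by mean. F3 was above Tfpi in 2 of 10 replicates, and its median was the lower, at 14.3 against 19.5 CPM per kb. Tfpi was above Vwf in 6 replicates and Vwf above Procr in 4, so that these were not clearly ordered. F8 at 4.99 ± 4.69 and Plau at 4.31 ± 6.94 CPM per kb had the lowest means, with Procr above F8 in 6 replicates and F8 above Plau in 7.

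Markers of other cell types and of endothelial subtypes varied among the replicates as well. In such bulk samples fewer cells of a type and less RNA per cell cannot be told apart. Lymphatic markers summed to 60.8 to 2747 CPM (median 1019) in naive and 439.5 to 3074 CPM (median 1378) in SCVS replicates, and blood endothelial markers to 313 to 9779 CPM (median 7368) and 5084 to 9312 CPM (median 5245). Tfpi was at or below 3 counts in naive 1 and naive 5, which had the lowest lymphatic sums of all replicates at 60.8 and 185 CPM. Single lymphatic markers did not all follow this order, since Prox1 and Pdpn stood at 63.2 and 26.3 CPM in naive 5, above their levels in naive 3 (52.0 and 15.5 CPM) and naive 4 (4.13 and 3.76 CPM). The 3 highest F8 values were in SCVS 4, SCVS 3 and naive 2, the 3 replicates with the highest lymphatic sums (3051, 3074 and 2747 CPM). F8 was lowest in naive 1 and naive 5. Mmrn1 alone gave 1689, 2052 and 1244 CPM of these 3 sums, and Prox1 and Pdpn were also highest in these replicates. Lyve1 in SCVS 3 (156 CPM) was below naive 3 (212 CPM), and Reln was higher in SCVS 1 (206 CPM) than in SCVS 4 (153 CPM). Flt4 and Ccl21a were highest in SCVS 2. SCVS 4 also had the highest macrophage and monocyte sum, 3916 CPM over 8 markers (group medians 49.2 CPM in naive and 222 CPM in SCVS). Lyz2 made up 3098 CPM of it, and Adgre1, Csf1r and Cd68 were also highest in SCVS 4. Vwf was at 0 in naive 5, which had the lowest blood endothelial sum, and at 494 CPM in naive 3, which had the highest (9779 CPM), but at 12.65 CPM in SCVS 2 where the sum was 9312 CPM. Platelet and megakaryocyte markers, another known source of Vwf transcripts, summed to 0.075 to 328 CPM in naive and 118 to 652.5 CPM in SCVS replicates over 9 markers (medians 112.5 and 280.3 CPM), and the highest sum, in SCVS 1, stood beside 152 CPM of Vwf. Procr was highest in SCVS 5, where 6 fibroblast markers summed to 1493 CPM, the highest of all replicates, and at 0 in SCVS 1 and naive 5, where they were lowest at 3.69 and 35.7 CPM. It was also at 0 in naive 4, where they summed to 293 CPM, and the median fibroblast sum was 663 CPM in naive and 113 CPM in SCVS. Dcn made up 1159 CPM and Lum 242 CPM of the fibroblast sum in SCVS 5. Col1a1 stood at 53.9 CPM and Pdgfra at 1.30 CPM there, against 455.5 CPM of Col1a1 in naive 2 and 27.4 CPM of Pdgfra in naive 1. Mural markers (6 genes) spanned 785.6 to 7591 CPM in naive and 436 to 5922 CPM in SCVS replicates, and Plat was highest in SCVS 5, which had the lowest mural sum. Rgs5 was the highest of the mural markers in every replicate but naive 2, where Acta2 was. In naive 5 Rgs5 stood at 5057 CPM of a mural sum of 5078 CPM, and Pdgfrb was at 0 there. The mesothelial and arachnoid sum (5 genes) lay at 78.7 to 1077 CPM in naive and 72.65 to 1228 CPM in SCVS. Msln alone made up nearly all of the highest sum of each group, at 1077 CPM in naive 5 and 1220 CPM in SCVS 2. It stood at 1.00 to 10.6 CPM in naive 2, naive 3, SCVS 1 and SCVS 5. SCVS 5 held 4863 CPM of 5 erythroid markers, against at most 125 CPM in the other 9 replicates. Of 4 hepatocyte markers, Ttr alone made up the sum of 3529 CPM in SCVS 1, where Alb and Apoa1 were at 0 and Serpina1a at 0.071 CPM, and the sum was at most 480.2 CPM in the other replicates. Ptprc, which encodes CD45, was at most 40.5 CPM in any replicate. The part of these markers in the members' values was not tested.

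**Figure D3:**
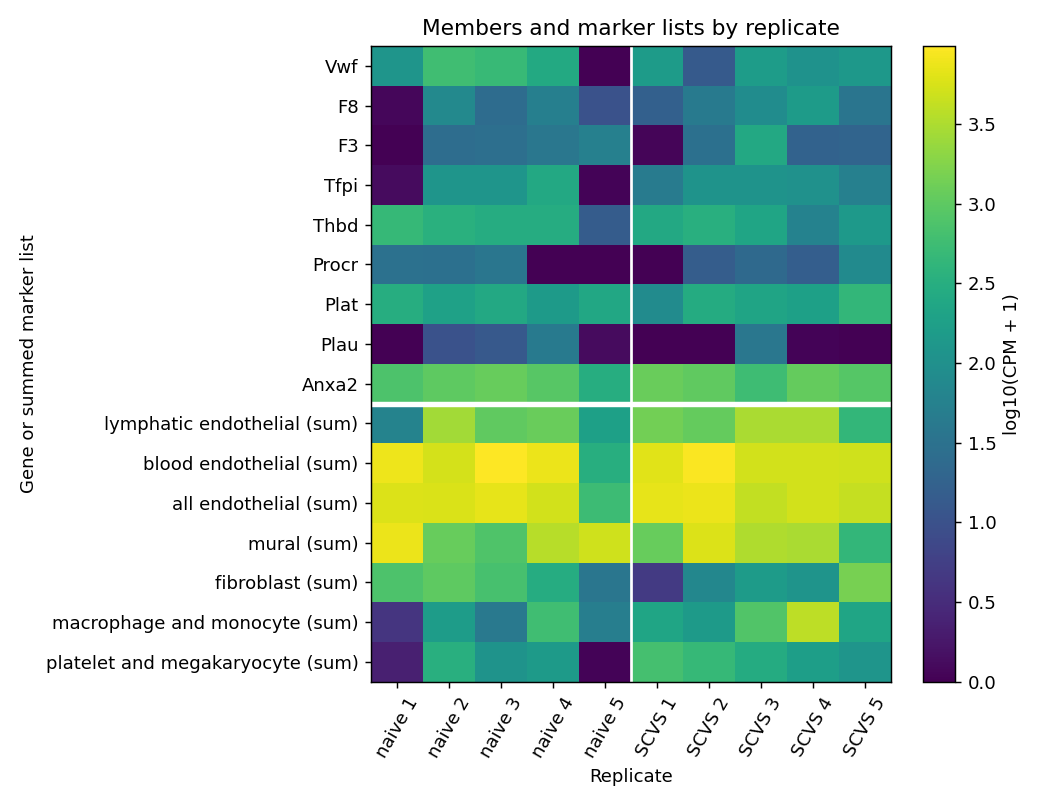
Level of each of the 9 genes and the summed level of 7 marker lists (y axis) in the 10 replicates (x axis), with colour giving log10(CPM + 1). Naive 1 was low in lymphatic markers (60.8 CPM) and naive 5 in blood endothelial markers (313 CPM), and Tfpi was at or below 3 counts in both.

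The members did not move as 1 block over the replicates. Among the 36 pairs of members the Spearman rho ran from -0.45 between F3 and Anxa2 to 0.76 between Vwf and Tfpi (n = 10 replicates, a description over shared libraries). Among all tested genes with a mean of at least 10 CPM, the 2 whose levels ranked most like Vwf were Myzap (rho 0.95) and Gm14253 (rho 0.94). For F8 they were Pard6g (rho 0.99) and Cmtm7 (rho 0.94), for F3 Ogt and Rprd1b (rho 0.94 each), and for Tfpi Plekhg1 (rho 0.95) and Casp8ap2 (rho 0.94). Thbd ranked most like Arhgap31 and Gpx7 (rho 0.94 each), Plat like Letmd1 (rho 0.95) and Mob3a (rho 0.93), Plau like Rap2c and Rbm7 (rho 0.91 each) and Anxa2 like H2-Q5 and Lysmd2 (rho 0.96 each). Procr ranked most like Dcn (rho 0.91) and Slc52a3 (rho 0.90), and Dcn is one of the fibroblast markers, at 1159 CPM in SCVS 5 and 0 CPM in SCVS 1. Between 2 and 14 genes reached a rho of 0.9 with a given member.

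The other genes of clotting, fibrinolysis and platelet restraint were read from the same fit. Of 52 listed genes 28 were tested, and edgeR, at an adjusted p of 0.1, and DESeq2 called 0 of them. At an unadjusted p of 0.05 edgeR again gave 0, the smallest p being 0.123. Of 14 coagulation factors 2 were tested, and F2, F9, F13b and Klkb1 had 0 counts in all replicates. Factor V (F5), the cofactor of factor X, had more than 3 counts in 5 replicates and reached 103.5 CPM in SCVS 1, with means of 2.92 ± 6.53 CPM in naive and 25.4 ± 44.1 CPM in SCVS (SD, n = 5 each; log2 fold change 3.04, SE 2.52). The F5 value was 0.92 without SCVS 1 and 11.27 without naive 3, the one naive replicate with F5 reads. F13a1, which encodes the fibrin cross-linking factor XIII subunit, was at means of 14.1 ± 19.2 and 36.7 ± 81.8 CPM (log2 fold change 1.44, SE 2.61). It reached 182.9 CPM in SCVS 4, the replicate with the highest macrophage sum. In SCVS 3, with the next highest sum (815.6 CPM), F13a1 was at 0.406 CPM. It was at 37.0 and 33.1 CPM in naive 2 and naive 4, where the sums were 160 and 576 CPM. Which cells gave the F13a1 reads was not tested.
Of 8 anticoagulants 4 were tested, with log2 fold changes above 0 for 2 and below 0 for 2 (median 0.20). Anxa5, which covers exposed phosphatidylserine, was at 950.7 ± 232 CPM in naive and 921 ± 95.4 CPM in SCVS (SD, n = 5 each; log2 fold change -0.09, SE 0.24). Hs3st1, which makes the heparan sulfate that binds antithrombin, was at 83.5 ± 71.3 and 146 ± 64.0 CPM (log2 fold change 0.81, SE 1.00). Its log2 fold change was 0.16 without naive 1 and naive 5, which held its lowest naive values.
Of 11 genes of the plasminogen system 5 were tested, 2 above 0 and 3 below 0 (median -0.40). Serpine2, an inhibitor of thrombin, plasmin and urokinase, was at 266 ± 186 CPM in naive and 97.6 ± 110 CPM in SCVS (SD, n = 5 each; log2 fold change -1.48, SE 0.89), the smallest p of all lists. Without naive 1 and naive 5, which held its 2 highest values, the log2 fold change of Serpine2 was -0.48. S100a10, the partner of annexin A2, was at 199 ± 142 and 286 ± 78.4 CPM (log2 fold change 0.50, SE 0.61), and the log2 fold change was 0.03 without naive 1 and naive 5.
Of 4 protease-activated receptors 3 were tested, 1 above 0 and 2 below 0 (median -0.25), and F2r, the thrombin receptor, was at 79.2 ± 47.5 CPM in naive and 110.5 ± 76.4 CPM in SCVS (log2 fold change 0.39, SE 0.58). F2rl2 was found above 3 counts in 3 replicates (log2 fold change -2.26, SE 2.75). Of 10 genes for storage of von Willebrand factor and export of factor VIII 9 were tested, 4 above 0 and 5 below 0 (median -0.13). Lman1, a cargo receptor for factors V and VIII, was at 139.7 ± 53.1 and 100.4 ± 26.8 CPM (log2 fold change -0.54, SE 0.37). Mmrn1, which encodes a factor V-binding protein and is also a lymphatic marker, was at 499 ± 498 and 1081 ± 768 CPM (log2 fold change 1.13, SE 0.93). Its log2 fold change was 0.44 without naive 1 and naive 5, which held its lowest naive values. All 5 antiplatelet enzymes were tested, 1 above 0 and 4 below 0 (median -0.37). Ptgs1, which feeds prostacyclin synthesis, was at 195.5 ± 145 and 186 ± 55.7 CPM (log2 fold change -0.10, SE 0.86), and Nt5e, which makes adenosine, was above 3 counts in 4 replicates (log2 fold change -2.96, SE 2.37).

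**Figure D4:**
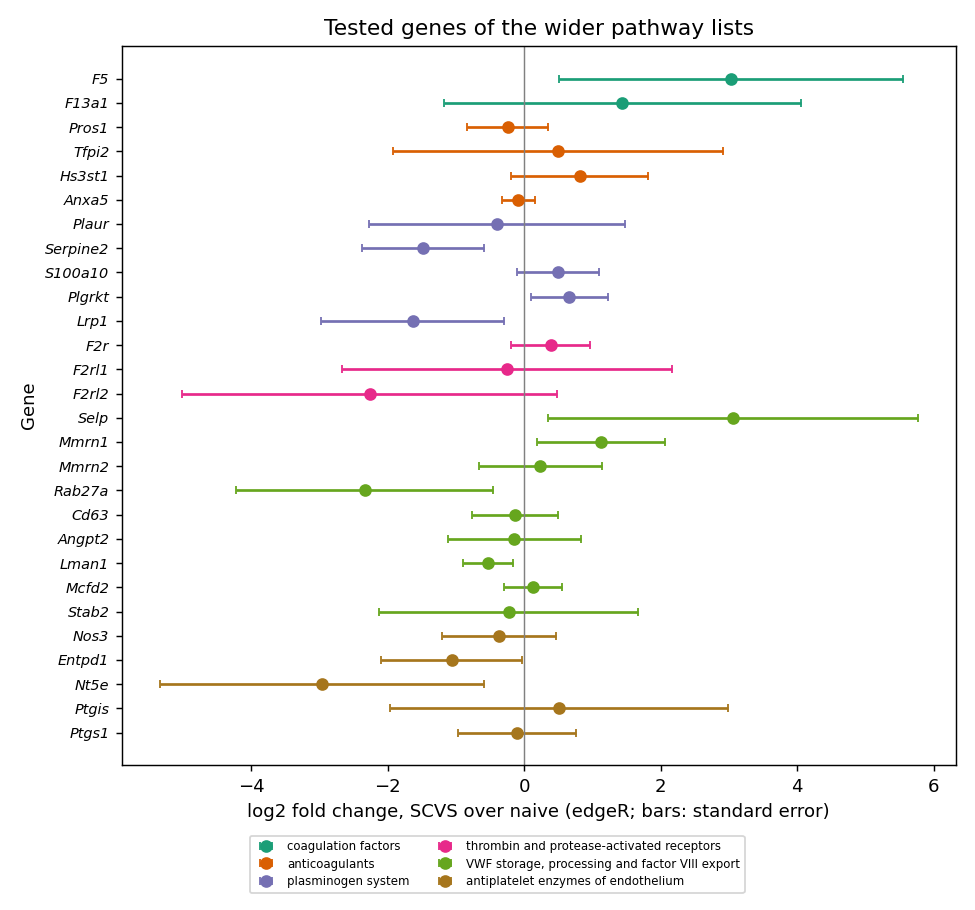
Log2 fold change of SCVS over naive (x axis) with standard errors as bars for the 28 tested genes (y axis) of 6 lists, coloured by list. Values ran from -2.96 to 3.06, with positive and negative values in each list but the coagulation factors, of which 2 were tested, and no gene passed the test.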

How the data were processed

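RNA of sorted meningeal LECs (5 naive and 5 SCVS replicates) was amplified by the authors with a whole-transcriptome kit and sequenced. The authors deposited raw counts per gene, with no normalization. Per the submitters' processing notes, cutadapt 1.9.1, HISAT2 2.0.1, HTSeq 0.6.1 and DESeq2 were used with GRCm38, whereas the methods name the older mm9 build. Of the 55401 identifiers, 22812 were not in the mm9 annotation GENCODE M1, and 7746 of these had reads. Coordinates are from RefSeq on GRCm38.p6 and exonic lengths from GENCODE M1. Whether reads were counted by strand is not given in the sources used here. Amplification can lift or lose a transcript in a library of few cells, and counts of 0 then need not mean absence.

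Replicates were grouped by the treatment in their labels and are pools of different mice. More than 1 cohort was used, but which replicate came from which is not given in the sources used here, so no comparison within cohorts was made. Genes that exceeded 5 counts in 3 or more replicates were fitted with edgeR 4.0.16 (quasi-likelihood test, TMM, R 4.3.3), with Benjamini-Hochberg adjustment over all 14815 and a threshold of 0.1, as for the study's own filter and threshold. Intervals are 95% intervals. The standard error is the absolute log2 fold change divided by the square root of the F statistic. CPM were computed from column totals and compared by a two-sided exact permutation test over 252 splits, adjusted over all tested genes. DESeq2 1.42.0, limma 3.58.1 with voom and quality weights, other scalings and filters, a replicate block and leaving out replicates served as alternatives. Python 3.11.15 with NumPy 2.4.6, pandas 2.3.3, SciPy 1.17.1 and Matplotlib 3.10.9 was used.

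The 9 members, the pathway lists and the marker lists were chosen with earlier results of these data known. Named genes are the members, in each pathway list the tested gene with the smallest p and the one with the highest mean CPM, and for each member the 2 genes with at least 10 CPM and the highest Spearman rho. F2, F9, F13b and Klkb1 were named after their values were seen.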

Additional observations from a re-analysis of the deposited data

Results flagged for a closer look

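In 4 of the 18 groups of 5 replicates formed by the 9 genes and both conditions (22.2%), 1 replicate stood apart from the others, with a gap to its nearest neighbour of more than 0.71 of the whole range of its group. The same rule picked 22.3% of the 29502 such groups over all tested genes, so the share among the members was that of the genes at large. The nominal share of about 5% is for normally distributed values. SCVS 3 was the highest for F3, with a gap of 0.889 of the range, and for Plau, with a gap of 0.998. Naive 4 was the highest for Plau among the naive replicates (0.716). SCVS 5 was the highest for Procr (0.725).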

How the results depend on the processing

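No member and no gene of the pathway lists was called under any of the 18 alternatives. The number of all genes past the threshold was 0 by edgeR, 114 by DESeq2 and 3 by limma, and the cause of this difference was not tested. At an unadjusted p of 0.05 edgeR gave 4941 of 29449 genes with no filter, 142 of 11602 with a stricter filter and 266 with a replicate block. Vwf (log2 fold change -1.97 to -0.82), F8 (0.46 to 1.897) and Thbd (-0.87 to -0.28) kept their direction under all 18. Leaving out 1 replicate at a time gave ranges that crossed 0 for F3 (-0.91 to 1.53), Tfpi (-0.57 to 0.44), Procr (-0.61 to 0.85), Plat (-0.35 without SCVS 5 to 0.24), Plau (-8.75 without SCVS 3 to 0.49 without naive 4), Anxa2 (-0.039 to 0.34), Anxa5 (-0.19 to 0.019), F2r (-0.014 to 0.69) and Ptgs1 (-0.42 to 0.19). With limma the log2 fold change was 1.20 for Tfpi, -2.74 for F13a1 and 0.37 for Ptgs1. With a replicate block it was 1.67 for Tfpi, -0.10 for Plat, -0.56 for F13a1 and 0.31 for Ptgs1, Plau was at -5.69 and F5 at 8.47, and no member was called. Same-numbered replicates are pools of different mice, the correlation of their deviations ran from -0.02 to 0.15, and 4 of 5 naive replicates correlated best with their own number. With naive 1 and naive 5 both left out, an alternative chosen after the data were seen, the groups of 2 members (Vwf and Tfpi) did not overlap. The same held for 3.04% of the 13794 genes tested in that set. The replicates left out held the lowest naive values of Vwf and of Tfpi, so the naive groups of both genes were raised by construction. The same was true of F8, Hs3st1 and Mmrn1. In that set Anxa2 was at -0.13, F5 at 2.29, F13a1 at 0.71, F2r at 0.60, Lman1 at -0.37 and Ptgs1 at -0.57. Genes that fail the filter under an alternative, such as Plau under the stricter one, have no value there. With 5 replicates a group, a gene present in some libraries and absent from others could be compared only within wide intervals.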

Other observations

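Scaled to the summed level of 6 markers of all endothelium, a measure chosen after the data were seen, Plat stood at 460.3 CPM per 1000 CPM of these markers in naive 5, against 29.15 to 49.4 in the other naive replicates and 12.2 to 102 in SCVS replicates. Anxa2 was at 553 in naive 5, against 121 to 172.5 in the other naive and 138 to 213.5 in SCVS replicates, and F3 was at 97.2 there, against 0 to 7.21 in the other naive and 0.0205 to 61.7 in SCVS replicates. The Vwf mean on this scale was 48.1 ± 39.8 in naive and 22.8 ± 13.8 in SCVS (SD, n = 5 each), and that of Thbd 51.7 ± 19.2 and 35.65 ± 15.8. The 6 markers summed to 542 CPM in naive 5, against at least 4147 CPM in the other replicates. In CPM, naive 5 held the highest naive value of F3 and a Plat value between those of other naive replicates. Anxa2 was at 300.0 CPM in naive 5, the lowest of all replicates, and Vwf, Tfpi, Procr and Thbd were at 0 to 13.6 CPM there. Which cells gave these reads was not tested.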
